A study of Caenorhabditis elegans with 12 samples.

Results

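The calcium store and mitochondrial calcium uptake genes are a set of 8 genes of Caenorhabditis elegans, of which 7 are described: crt-1, csq-1, sca-1, unc-68, stim-1, orai-1 and mcu-1. They were chosen by name for the roles of their products, and all 8 were found among the 46926 genes of the deposited table. Counts of members below are over these 7. Transcripts were measured as TPM (a transcript's share of its library, corrected for gene length and scaled to a fixed sum) in whole fourth-stage larvae. There were 4 strains with 3 biological replicates each. The double mutant carried nuo-6(qm200) together with itr-1(sa73), the nuo-6 strain carried qm200 alone, the itr-1 strain carried sa73 alone, and N2 was the wild type. The larvae of all 4 strains were fed HT115 bacteria that carried an empty vector. Both alleles are present in every cell of the animal, and the labels name no promoter or tissue for them.

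The endoplasmic reticulum, and the sarcoplasmic reticulum of muscle, is the main calcium store of an animal cell. The pump SERCA fills it, soluble proteins in its lumen hold the calcium, and inositol trisphosphate receptors and ryanodine receptors release it. When the store runs low, STIM in the reticulum membrane opens Orai channels at the cell surface, and calcium released next to mitochondria can enter them through the calcium uniporter. ITR-1 is the worm inositol trisphosphate receptor, and NUO-6 is a subunit of complex I of the respiratory chain. The design therefore asks how transcripts of the remaining store genes stood when the release channel, the respiratory chain or both were mutated.

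Per the WBcel235 annotation, crt-1 (WBGene00000802) lies on the minus strand of chromosome V at 6098992 to 6100542, and unc-68 (WBGene00006801) on the same strand at 6901681 to 6929038. Of the genes on chromosome III, sca-1 (WBGene00004736) lies on the minus strand at 10811906 to 10816850, stim-1 (WBGene00021910) on the minus strand at 408126 to 418749, and orai-1 (WBGene00015648) on the plus strand at 646754 to 654463. On chromosome IV, mcu-1 (WBGene00019296) lies on the minus strand at 5937447 to 5939230. The X-linked member csq-1 (WBGene00000822) lies on the plus strand at 14684877 to 14688322. No member shares exon sequence with a gene on its own strand. Exons of crt-1, sca-1 and mcu-1 overlap a gene on the other strand, smut-1 (at most 18.99 TPM), K11D9.5 (at most 0.256 TPM) and H32C10.1 (at most 8.02 TPM). The libraries were stranded, but whether the counting used strand is not given in the sources used here, so reads from the shared stretches may not be told apart.

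Tests covered the 15230 genes that reached 1 TPM in 3 or more libraries, and all 7 members were among them. The 12 libraries held 13879 to 14902 genes at 1 TPM or more, and libraries of a strain correlated across genes at 0.975 to 0.992. Each TPM library has the same sum, and the median log2 fold over all genes was above 0 against N2 (0.25 in the double mutant, 0.18 in nuo-6 and 0.14 in itr-1). Changes relative to other genes were therefore also computed with median-of-ratios scaling, which sets those medians near 0. Of the genes called in the TPM fit, 73.2% were higher in the double mutant than in N2, 71.2% in nuo-6 and 72.2% in itr-1, and 50%, 50.1% and 44.9% with that scaling. An oocyte and early embryo list of 20 genes gave a stage score (mean log2) of 4.60 to 5.98 in the double mutant, 4.84 to 5.08 in nuo-6, 5.09 to 6.27 in itr-1 and 3.49 to 4.44 in N2. Replicate 2 had the highest score in each of the 4 strains, and every member was also tested with the score as a covariate and without the 4 libraries numbered 2. Every N2 library scored below every mutant library, so in comparisons with N2 the score and the strain cannot be fully told apart. Whether stage accounts for a call lost with the score was not tested. As background, sa73 and qm200 are point alleles, so a transcript level checks neither label. The itr-1 transcript averaged 33.7 ± 1.2 TPM in the double mutant, 30.3 ± 2.7 TPM in nuo-6, 27.1 ± 4.2 TPM in itr-1 and 21.2 ± 3.2 TPM in N2 (SD, n = 3 each).

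The order of the members by level per length was the same in all 4 strains at the top and at the bottom. Calreticulin (crt-1), the SERCA pump (sca-1) and calsequestrin (csq-1) were the 3 most abundant, with crt-1 between 1134 and 1836 TPM, sca-1 between 384.2 and 508.4 TPM and csq-1 between 226.8 and 322.2 TPM over the 12 libraries. The ryanodine receptor unc-68 and the channel orai-1 were the least abundant, and their libraries did not overlap within a strain. In the middle the order differed between strains. The double mutant, nuo-6 and itr-1 had mcu-1 above stim-1 without overlap, whereas in N2 the mean of stim-1 lay above that of mcu-1 and their libraries overlapped.

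**Figure D1:**
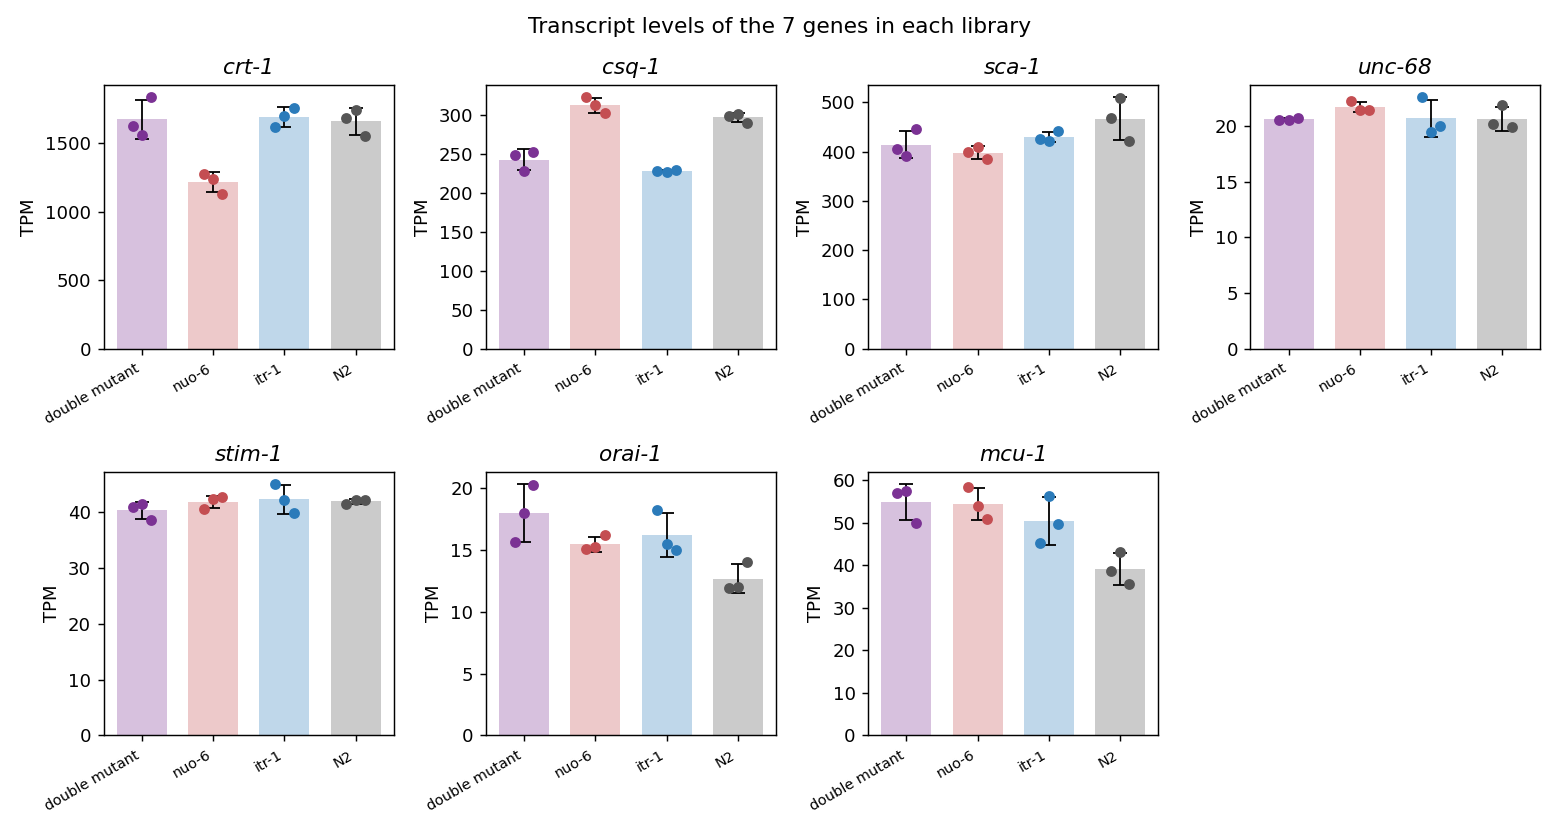
TPM of the 7 members in every library, 1 panel per gene, with the double mutant, nuo-6, itr-1 and N2 running left to right. Points are libraries and bars are means with SD (n = 3). The 3 nuo-6 libraries of crt-1 lie between 1134 and 1280 TPM, below every other library, and csq-1 is lower in both strains that carry the itr-1 allele.

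Against N2, the double mutant had higher orai-1 and mcu-1 and lower csq-1. These are the calcium entry channel, the pore of the mitochondrial uniporter, and the calcium-binding protein of muscle stores. The 2 higher members stand beside 46.3% of all genes tested that were called higher, and the 1 lower member beside 17% called lower. In all, 3 of 7 members were called, against 63.3% of all genes. A call means an adjusted p under 0.05 in limma's test with Benjamini-Hochberg adjustment over the 15230 genes, two-sided, and fold changes are differences of log2(TPM + 1). Since whole animals were measured, fewer cells of a type and less RNA per cell cannot be told apart. With median-of-ratios scaling 0 members were called higher and 5 lower in this comparison, beside 4408 and 4416 of the 15230 genes.

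Against N2, nuo-6 had higher mcu-1 and lower crt-1 and sca-1. The 1 higher member stands beside 37.3% of all genes called higher and the 2 lower ones beside 15% called lower, so that 3 of 7 members and 52.3% of all genes were called. The itr-1 strain had higher orai-1 and mcu-1 and lower csq-1 than N2, which is 2 members beside 29% of genes called higher and 1 member beside 11.1% called lower, or 3 of 7 members against 40.1% of all genes. With median-of-ratios scaling the counts were 1 higher and 3 lower in nuo-6, beside 3745 and 3727 of the 15230 genes. In itr-1 they were 0 higher and 4 lower, beside 2628 and 3222 genes. These 3 comparisons share the N2 libraries. In the TPM fit the members' share called in each lay near or below the share of all genes, and with median-of-ratios scaling it lay above.

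The comparisons between mutants left fewer members. The double mutant had higher crt-1 and lower csq-1 than nuo-6, which is 1 member beside 9.99% of genes called higher and 1 beside 5.46% called lower (2 of 7 members against 15.4% of all genes). Against itr-1, limma called 0 members higher in the double mutant beside 29.3% of genes and 0 lower beside 16.4% of genes (0 of 7 members against 45.7% of all genes called). The smallest unadjusted p among the members in that comparison was 0.0894, for csq-1 (limma, log2 fold 0.09, 95% interval -0.02 to 0.19). With median-of-ratios scaling 1 member, stim-1, was called lower there, beside 3430 of the 15230 genes. The interaction asks whether the nuo-6 allele had the same effect with and without the itr-1 allele, and crt-1 was its 1 called member, against 12% of all genes. Its interaction was positive, as for 3.69% of genes, and 0 members had a negative one beside 8.32% of genes. The median log2 fold of the 7 members was -0.0025 in the double mutant against N2, 0.07 in nuo-6 and 0.01 in itr-1, below the medians of all genes given above.

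**Figure D2:**
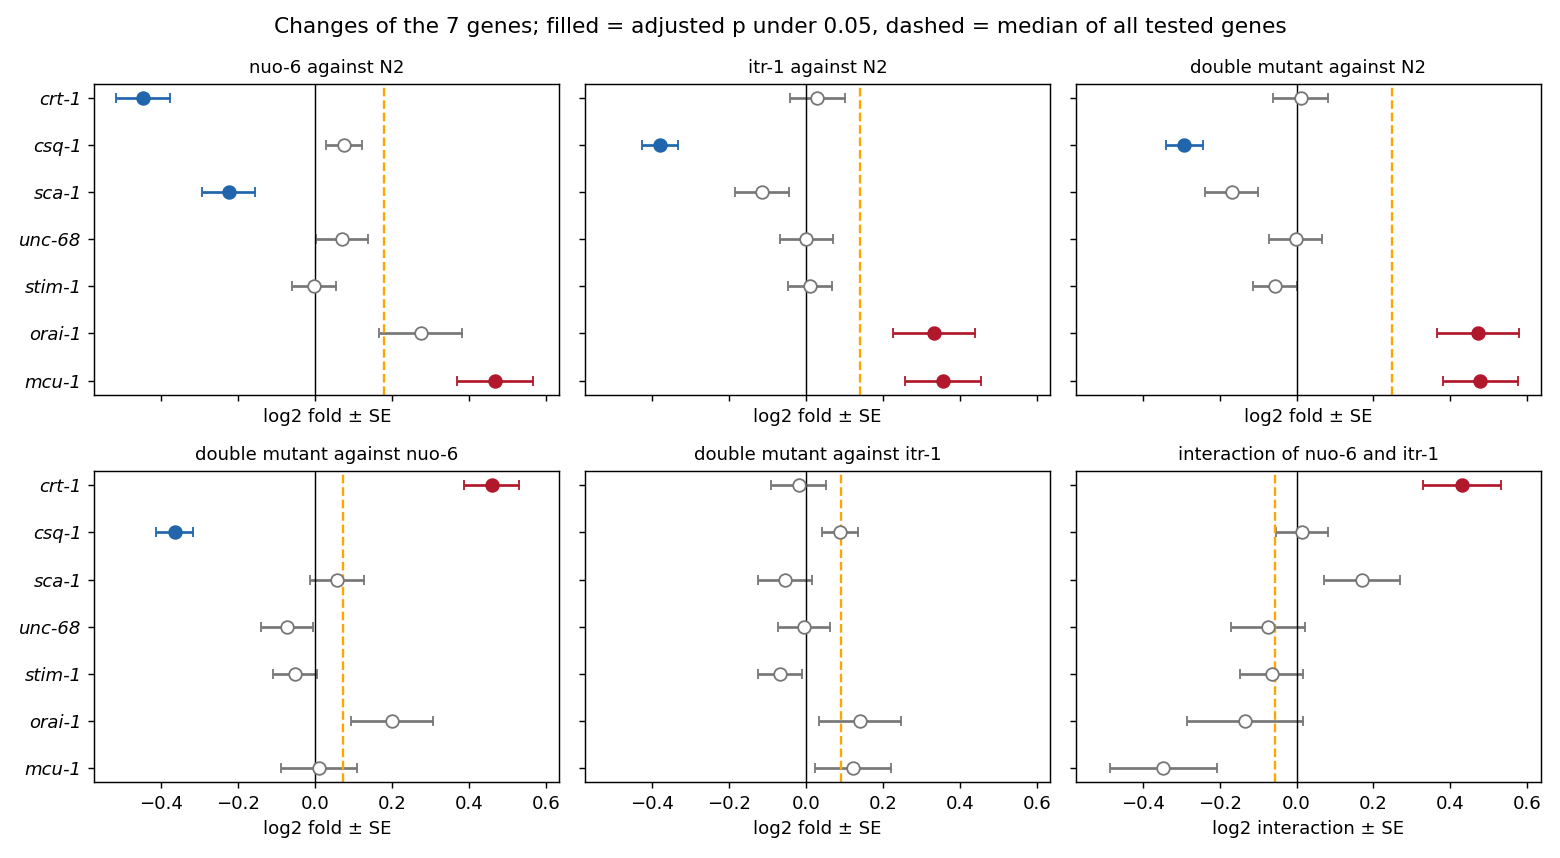
Log2 fold changes of the 7 members with SE in the 6 comparisons, on the log2(TPM + 1) scale. Filled points passed limma's test at an adjusted p under 0.05, open points did not, and the dashed line is the median of all genes tested. Called members lie on both sides of 0, with mcu-1 called higher against N2 in all 3 mutant strains, and csq-1 called lower in each comparison that adds the itr-1 allele.

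Calreticulin, encoded by crt-1, is the abundant calcium-binding chaperone of the reticulum lumen. It had 1627, 1563 and 1836 TPM in the double mutant, 1280, 1239 and 1134 TPM in nuo-6, 1619, 1704 and 1758 TPM in itr-1, and 1685, 1744 and 1554 TPM in N2. The 3 nuo-6 libraries were the lowest of the 12 and overlapped no other strain, while the other 3 strains overlapped one another. In nuo-6 the level fell by 26.7% relative to N2 (log2 fold -0.45 ± 0.07 SE, adjusted p = 0.000379). The double mutant was 37.6% above nuo-6 (log2 fold 0.46 ± 0.07, adjusted p = 0.00194). Both of these calls held in all 23 alternative analyses. Against N2 the log2 fold of crt-1 was 0.01 (95% interval -0.15 to 0.17, adjusted p = 0.899) in the double mutant and 0.03 (-0.13 to 0.19, adjusted p = 0.766) in itr-1, and it turned to -0.26 with median-of-ratios scaling in the double mutant.

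The test of the difference itself gave an interaction of 0.43 ± 0.10 for crt-1 (adjusted p = 0.0229). It lost its call with the stage score (0.36, adjusted p = 0.135), without the libraries numbered 2 (0.46, adjusted p = 0.065), without N2 replicate 1 (0.42, adjusted p = 0.0573) and without nuo-6 replicate 3 (0.38, adjusted p = 0.058). The value stayed between 0.36 and 0.48 in these and the other single-library omissions.

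Other genes of reticulum folding were also lower in nuo-6. The list of 14 genes, all tested, holds chaperones, disulfide isomerases and cochaperones, and also calu-1, ero-1 and uggt-1. In nuo-6 against N2, 9 fell and 0 rose, beside 15% of all genes called lower and 37.3% called higher. Their median log2 fold was -0.31 against 0.18 for all genes. Among the 9, pdi-3, a disulfide isomerase, fell by 0.64 on the log2 scale (adjusted p = 2.18e-06), hsp-3, a BiP-type chaperone, fell by 0.42 (adjusted p = 0.00112), and uggt-1, which monitors glycoprotein folding, fell by 0.34 (adjusted p = 0.000566). In the double mutant against nuo-6, 7 rose and 2 fell, beside 9.99% and 5.46% of all genes (median 0.24 against 0.07 for all genes). Among those that rose, enpl-1, the GRP94 chaperone, stood at 0.35 (adjusted p = 0.00777) and pdi-3 at 0.33 (adjusted p = 0.0013). With median-of-ratios scaling that count became 2 higher and 2 lower, beside 853 and 1157 of the 15230 genes. The interaction was called for 6 of 14 genes, all upward, beside 3.69% of all genes. It was called for 8 of 14 with median-of-ratios scaling, beside 993 of the 15230 genes called upward. Without the libraries numbered 2 it was called for 4 of 14, and with the stage score for 2 of 14.

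The folding genes did not all follow this pattern. The calumenin gene calu-1, which encodes a calcium-binding protein of the secretory pathway, was lower in every mutant than in N2, by -0.86 in the double mutant (adjusted p = 2.61e-07), -0.61 in nuo-6 (adjusted p = 4.42e-06) and -0.56 in itr-1 (adjusted p = 2.47e-05). It was also lower in the double mutant than in nuo-6, at -0.26 (adjusted p = 0.00705), where crt-1 was higher, although that call was lost with quantile normalization and without the libraries numbered 2. In the double mutant against N2 the list had 2 genes higher and 6 lower (46.3% and 17% of all genes), and in itr-1 against N2 likewise 2 higher and 6 lower (29% and 11.1% of all genes). With median-of-ratios scaling these counts were 0 higher and 10 lower in the double mutant and 0 higher and 9 lower in itr-1. Beside them, 4408 of the 15230 genes were called higher and 4416 lower in the double mutant, and 2628 and 3222 in itr-1. The stage score gave 1 higher and 5 lower in the double mutant and 0 higher and 1 lower in itr-1. The second BiP-type gene, hsp-4, a known target of the reticulum stress response, passed in no comparison and averaged 241.5 TPM in the double mutant, 204.1 TPM in nuo-6, 240.1 TPM in itr-1 and 190.0 TPM in N2. Set against the mean log2 level of the 14 genes in the same library, crt-1 stood 3.03 to 3.15 higher in the double mutant, 2.73 to 2.84 higher in nuo-6, 3.03 to 3.16 higher in itr-1 and 2.89 to 3.00 higher in N2. The nuo-6 libraries were thus lowest on this scale too, without overlap.

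**Figure D3:**
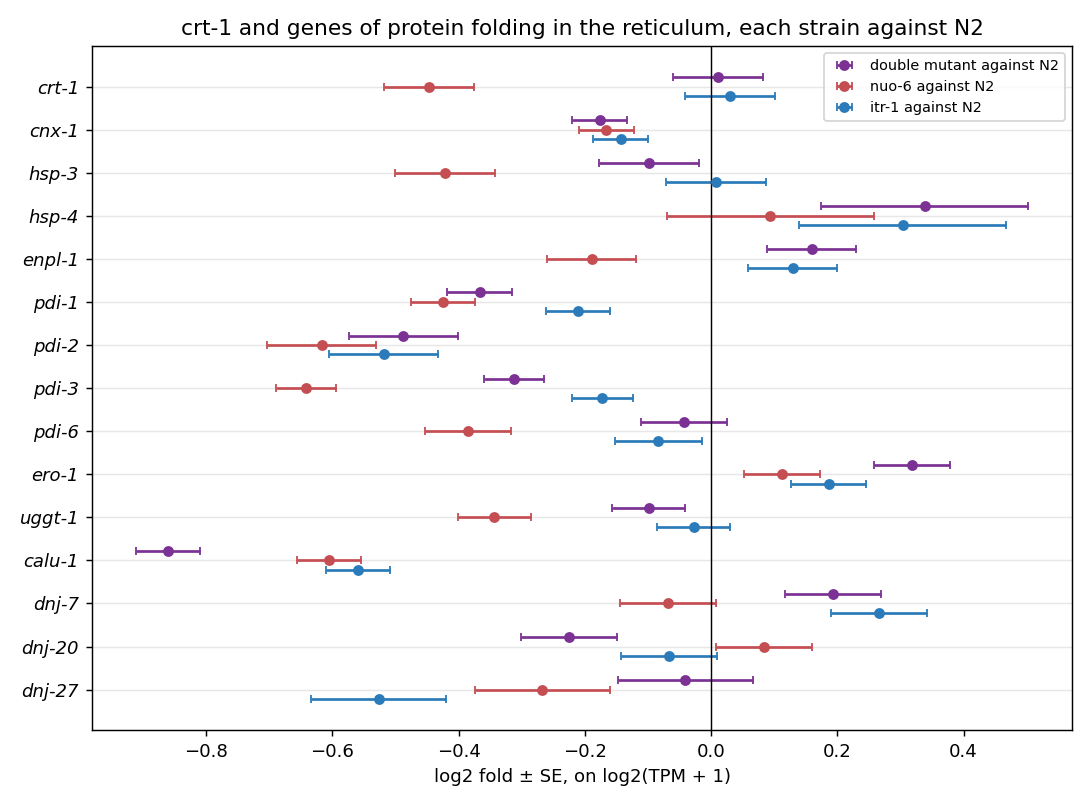
Log2 fold change with SE of crt-1 and the 14 reticulum folding genes in the double mutant, nuo-6 and itr-1, each against N2, on the log2(TPM + 1) scale. In nuo-6 most genes lie below 0, with 9 of the 14 called lower, while crt-1 lies at -0.45 in nuo-6 and near 0 in the other strains.

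Calsequestrin, encoded by csq-1, is the calcium-binding protein of the sarcoplasmic reticulum and in worms is found mainly in body wall muscle. It had 247.9, 227.3 and 252.1 TPM in the double mutant, 322.2, 312.2 and 302.9 TPM in nuo-6, 227.8, 226.8 and 228.7 TPM in itr-1, and 298.4, 301.6 and 290.0 TPM in N2. The strains fell into a lower pair that carried the itr-1 allele and a higher pair that did not, with no overlap between the pairs. Relative to N2 the level fell by 23.2% in itr-1 (log2 fold -0.38 ± 0.05, adjusted p = 0.000204) and by 18.3% in the double mutant (-0.29 ± 0.05, adjusted p = 0.000307). In the double mutant it fell by 22.4% relative to nuo-6 (-0.37 ± 0.05, adjusted p = 0.000679). These 3 calls held in all 23 alternatives. The nuo-6 allele alone gave 0.07 (95% interval -0.03 to 0.18, adjusted p = 0.209), and the interaction was 0.01 (-0.13 to 0.16, adjusted p = 0.913).

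Body wall muscle markers were lower in each comparison where csq-1 fell, and also where it did not. None of the 14 markers was at 0 in any strain, and their summed level was 7335 to 7495 TPM in the double mutant, 9700 to 9944 TPM in nuo-6, 8675 to 8871 TPM in itr-1 and 10460 to 10900 TPM in N2. The markers called lower numbered 10 of 14 in the double mutant against N2 (17% of all genes) and 10 of 14 against nuo-6 (5.46%). In itr-1 against N2 they numbered 7 of 14 (11.1%), and 0 were called higher in these comparisons. In itr-1 against N2 that count was 12 with median-of-ratios scaling (3222 of the 15230 genes), 4 without the libraries numbered 2 and 3 with the stage score. In the double mutant against itr-1, csq-1 was 6.43% higher with overlap and not called. There 9 of 14 markers were lower and 0 higher, beside 16.4% and 29.3% of all genes. In nuo-6 against N2, csq-1 was 5.31% higher without overlap and not called. There 5 markers were lower and 2 higher, beside 15% and 37.3% of all genes. Set against the mean log2 level of these markers in the same library, csq-1 was -0.13 to -0.02 in itr-1 and 0.13 to 0.16 in N2, without overlap. On the same scale the double mutant had 0.10 to 0.23, against 0.21 to 0.28 in nuo-6 and 0.13 to 0.16 in N2, and overlapped both. The part of muscle content in the csq-1 result was not tested beyond these values.

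The SERCA pump, encoded by sca-1, moves calcium into the store. It had 406.0, 391.0 and 445.1 TPM in the double mutant, 398.5, 410.2 and 384.2 TPM in nuo-6, 426.4, 420.9 and 440.9 TPM in itr-1, and 468.9, 508.4 and 421.3 TPM in N2. N2 was the most variable of the 4 strains, and only the nuo-6 libraries lay wholly below it. In nuo-6 the level fell by 14.7% relative to N2 (log2 fold -0.23 ± 0.07, adjusted p = 0.0186). This call was lost with the stage score (adjusted p = 0.104), without the libraries numbered 2 (adjusted p = 0.0689), and without N2 replicate 1 (0.0525), N2 replicate 2 (0.0717) or nuo-6 replicate 3 (0.0654). The double mutant gave -0.17 ± 0.07 against N2 (adjusted p = 0.0529) and itr-1 gave -0.11 ± 0.07 (adjusted p = 0.208), and both passed with median-of-ratios scaling (-0.44 and -0.28). Against the body wall muscle marker mean, sca-1 stood 0.88 to 1.05 higher in the double mutant and 0.55 to 0.67 higher in nuo-6, without overlap, and 0.69 to 0.92 higher in N2.

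The ryanodine receptor, encoded by unc-68, releases stored calcium in muscle beside ITR-1. It had 20.6, 20.5 and 20.7 TPM in the double mutant, 22.3, 21.4 and 21.4 TPM in nuo-6, 22.6, 19.5 and 20.01 TPM in itr-1, and 20.2, 21.9 and 19.9 TPM in N2. The strain means spanned 20.6 to 21.7 TPM, and no comparison passed the test. Against N2 the 95% intervals of the log2 fold were -0.15 to 0.15 in the double mutant, -0.08 to 0.22 in nuo-6 and -0.15 to 0.15 in itr-1. Relative to other genes it stood lower, and median-of-ratios scaling gave -0.26 in the double mutant (adjusted p = 0.00219) and -0.16 in itr-1 (adjusted p = 0.0443). Relative to body wall muscle markers it stood higher, at -3.33 to -3.31 in the double mutant, -3.55 to -3.52 in nuo-6, -3.50 to -3.41 in itr-1 and -3.70 to -3.56 in N2 on the log2 scale, and no mutant strain overlapped N2.

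The store sensor STIM, encoded by stim-1, sits in the reticulum membrane. It had 40.99, 41.4 and 38.6 TPM in the double mutant, 40.6, 42.3 and 42.7 TPM in nuo-6, 45.0, 42.2 and 39.8 TPM in itr-1, and 41.4, 42.3 and 42.1 TPM in N2. Its strain means lay between 40.3 and 42.3 TPM, and no comparison passed. The 95% interval against N2 was -0.18 to 0.07 in the double mutant, -0.13 to 0.12 in nuo-6 and -0.11 to 0.14 in itr-1. Relative to other genes stim-1 stood lower, and median-of-ratios scaling gave -0.32 in the double mutant (adjusted p = 0.000235), -0.19 in nuo-6 (adjusted p = 0.00858) and -0.15 in itr-1 (adjusted p = 0.0318), where the TPM fit gave 0.01.

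The Orai channel at the cell surface, encoded by orai-1, is opened by STIM. It had 15.7, 18.1 and 20.3 TPM in the double mutant, 15.1, 15.2 and 16.2 TPM in nuo-6, 18.2, 15.5 and 14.99 TPM in itr-1, and 11.96, 12.03 and 14.03 TPM in N2. The 9 mutant libraries all lay above the 3 N2 libraries, while the 3 mutant strains overlapped one another. Relative to N2 the log2 fold was 0.47 ± 0.11 in the double mutant (adjusted p = 0.00273), 0.33 ± 0.11 in itr-1 (adjusted p = 0.03) and 0.27 ± 0.11 in nuo-6 (adjusted p = 0.0508, not called). The rises depended on scaling, since median-of-ratios gave 0.22 in the double mutant (adjusted p = 0.105) and 0.17 in itr-1 (adjusted p = 0.224), and quantile normalization gave 0.12 (adjusted p = 0.386) and 0.10 (adjusted p = 0.542). The itr-1 call was also lost with the stage score (log2 fold 0.45, adjusted p = 0.118) and without the libraries numbered 2 (0.33, adjusted p = 0.137). Other losses came when only itr-1 and N2 were fitted (adjusted p = 0.0585), and without N2 replicate 1 (0.0982), N2 replicate 2 (0.0788) or itr-1 replicate 1 (0.104). The nuo-6 fold lay near the threshold and was called in 8 of 23 alternatives, as when only nuo-6 and N2 were fitted (adjusted p = 0.0243). It was 0.09 with median-of-ratios scaling (adjusted p = 0.495) and 0.02 with quantile normalization (adjusted p = 0.922).

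The pore of the mitochondrial calcium uniporter is encoded by mcu-1. It had 57.0, 57.5 and 49.9 TPM in the double mutant, 58.3, 53.9 and 50.8 TPM in nuo-6, 45.1, 56.3 and 49.6 TPM in itr-1, and 38.7, 42.97 and 35.5 TPM in N2. All 9 mutant libraries lay above the 3 N2 libraries, and the mutants overlapped one another. Relative to N2 the level was 40.1% higher in the double mutant (log2 fold 0.48 ± 0.10, adjusted p = 0.00152), 39.1% higher in nuo-6 (0.47 ± 0.10, adjusted p = 0.00231) and 28.8% higher in itr-1 (0.36 ± 0.10, adjusted p = 0.0162). The nuo-6 call held in all 23 alternatives. The double mutant lost its call with median-of-ratios scaling (0.21, adjusted p = 0.0773) and with the stage score (0.25, adjusted p = 0.0805). The itr-1 call was lost with the stage score (0.08, adjusted p = 0.733), with median-of-ratios scaling (0.19, adjusted p = 0.137), with quantile normalization (0.25, adjusted p = 0.0586), without N2 replicate 3 (0.065) and without itr-1 replicate 2 (0.0602).

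For mcu-1 the interaction of -0.35 ± 0.14 did not pass (95% interval -0.65 to -0.04, adjusted p = 0.129). The double mutant differed from nuo-6 by 0.01 (95% interval -0.21 to 0.23, adjusted p = 0.952).

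Among 5 tested genes of a mitochondrial list, mostly of membrane transport, 4 rose and 0 fell in nuo-6 against N2. Beside them stand 37.3% of all genes called higher (median log2 fold 0.30 against 0.18 for all genes). The 4 included pdp-1, a pyruvate dehydrogenase phosphatase gene and not a transporter, which was called in all 23 alternatives. The exchanger gene letm-1, of the inner membrane, stood at 0.75 in the double mutant against N2 (adjusted p = 6.89e-06), 0.55 in nuo-6 (adjusted p = 9.78e-05) and 0.22 in itr-1 (adjusted p = 0.0295). The itr-1 call was lost with both other scalings, with the stage score and when only itr-1 and N2 were fitted, and its adjusted p reached 0.115 among the omissions of single libraries (lost without N2 replicate 1 or 3, or itr-1 replicate 1 or 2). The outer membrane channel vdac-1 stood at 0.25 in nuo-6 (adjusted p = 0.000982) and at 0.08 in the double mutant (adjusted p = 0.172). The ATP/ADP carrier ant-1.1 stood at 0.41 in the double mutant (adjusted p = 5.65e-05) and 0.30 in nuo-6 (adjusted p = 0.000719). The vdac-1 call and both ant-1.1 calls were lost with median-of-ratios scaling. In the double mutant 3 of 5 genes rose against N2 (46.3% of all genes) and 4 of 5 against itr-1 (29.3%). In itr-1 1 of 5 rose against N2 (29%). With median-of-ratios scaling the double mutant had 1 higher and 2 lower against N2 (4408 and 4416 of the 15230 genes). The nuo-6 strain had 2 higher and 1 lower (3745 and 3727 genes), and itr-1 had 0 higher and 2 lower (2628 and 3222 genes). Measured against the mean log2 level of these 5 genes in each library, mcu-1 stood at -1.93 to -1.68 in the double mutant, -1.82 to -1.63 in nuo-6, -1.81 to -1.50 in itr-1 and -2.03 to -1.88 in N2. On that scale the double mutant overlapped N2, while nuo-6 and itr-1 did not.

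Ratios of partner genes within a library are not changed by a scaling factor that all genes of the library share, such as that of median-of-ratios scaling. Described here are 3 such ratios, each tested for the nuo-6 allele and for the itr-1 allele by an exact two-sided permutation test stratified by the other allele, with 6 libraries on a side, 400 permutations, a smallest possible p of 0.005 and Benjamini-Hochberg adjustment over all 8 tests that were run, of which 6 are given. The ratio of csq-1 to crt-1 ranged from 0.137 to 0.152 in the double mutant, 0.252 to 0.267 in nuo-6, 0.130 to 0.141 in itr-1 and 0.173 to 0.187 in N2. It was lower in 6 of 6 libraries with the itr-1 allele, by -0.62 on the log2 scale (exact permutation p = 0.005, adjusted p = 0.02). Library counts in these tests are against the mean of the strain that lacked the allele and matched in the other allele. Each difference is the mean over the 2 backgrounds of the other allele. The csq-1 to crt-1 ratio was higher in 6 of 6 libraries with the nuo-6 allele, by 0.31 (exact permutation p = 0.01, adjusted p = 0.02). Its mean log2 value was -1.96 in nuo-6 and -2.48 in N2. It was -2.79 in the double mutant and -2.89 in itr-1, whose libraries overlapped. Since crt-1 is part of this ratio, it moves with the crt-1 result above.

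The ratio of stim-1 to orai-1 ranged from 1.90 to 2.61 in the double mutant, 2.64 to 2.78 in nuo-6, 2.47 to 2.73 in itr-1 and 3.00 to 3.51 in N2. Every mutant library lay below every N2 library. On the TPM scale stim-1 varied little, and the ratio moves with the orai-1 result above. With median-of-ratios scaling, limma gave -0.32 for stim-1 (adjusted p = 0.000235) and 0.22 for orai-1 (adjusted p = 0.105) in the double mutant against N2. The part of each gene in this ratio thus depends on the scaling. With the itr-1 allele the ratio was lower by -0.30 on the log2 scale in 6 of 6 libraries (exact permutation p = 0.005, adjusted p = 0.02), and with the nuo-6 allele by -0.26 in 5 of 6 (exact permutation p = 0.01, adjusted p = 0.02). The nuo-6 value reached an adjusted p of 0.06 when itr-1 replicate 2 or itr-1 replicate 3 was left out, and of 0.05 without nuo-6 replicate 2 or nuo-6 replicate 3.

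The ratio of unc-68 to sca-1, release channel to pump, ranged from 0.0465 to 0.0525 in the double mutant, 0.0523 to 0.0559 in nuo-6, 0.0454 to 0.0529 in itr-1 and 0.0430 to 0.0472 in N2. With the nuo-6 allele it was higher in 5 of 6 libraries, by 0.17 (exact permutation p = 0.04, adjusted p = 0.064, not called), and with the itr-1 allele the difference was -0.01 (exact permutation p = 0.9, adjusted p = 0.9).

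**Figure D4:**
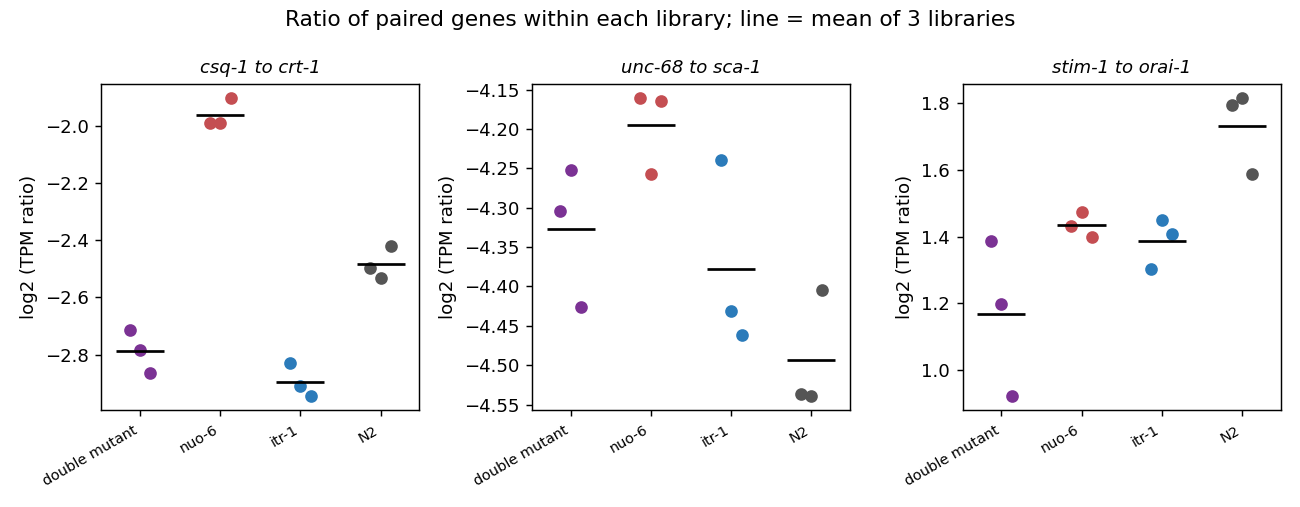
Log2 of the TPM ratio of csq-1 to crt-1, unc-68 to sca-1 and stim-1 to orai-1 in each library, by strain. Points are libraries and lines are means (n = 3). The csq-1 to crt-1 ratio is highest in nuo-6, and the stim-1 to orai-1 ratio is lower in every mutant library than in N2.

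Beyond the members, the release and junction list held itr-1, jph-1 and fkb-2. The itr-1 transcript was higher than in N2 in the double mutant (log2 fold 0.65, adjusted p = 0.000936) and in nuo-6 (0.50, adjusted p = 0.00611), and gave 0.34 in itr-1 (adjusted p = 0.0514). The FKBP-type gene fkb-2 was lower in the double mutant (-0.38, adjusted p = 4.58e-05) and nuo-6 (-0.34, adjusted p = 0.000133). Junctophilin, jph-1, a muscle junction protein, was lower in the double mutant than in nuo-6 (-0.30, adjusted p = 0.0316), as were 10 of the 14 body wall muscle markers, and its adjusted p reached 0.113 among the omissions of single libraries.

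Of 11 tested genes for calcium pumps and exchangers, 5 rose and 2 fell in the double mutant against N2, 3 rose and 1 fell in nuo-6, and 3 rose and 1 fell in itr-1, beside 46.3%, 37.3% and 29% of all genes called higher in the same strains. With median-of-ratios scaling the double mutant had 2 higher and 3 lower (4408 and 4416 of the 15230 genes). The nuo-6 strain had 1 higher and 3 lower (3745 and 3727 genes), and itr-1 had 0 higher and 1 lower (2628 and 3222 genes). The largest rise among them was in ncx-4, of the sodium/calcium exchanger family, which averaged 9.15 TPM in the double mutant, 8.66 TPM in nuo-6, 4.10 TPM in itr-1 and 3.16 TPM in N2 (log2 fold against N2 of 1.28 in the double mutant, adjusted p = 2.31e-06, and 1.22 in nuo-6, adjusted p = 5.42e-06). The plasma membrane pump gene mca-1 rose by 0.50 in the double mutant (adjusted p = 0.00049) and 0.34 in nuo-6 (adjusted p = 0.00761), the second of which was lost with both other scalings. The median fold of this list lay close to that of all genes in the double mutant, at 0.24 against 0.25.

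Among 11 tested surface channel genes, 6 rose and 1 fell in the double mutant against N2, 3 rose in nuo-6, and 3 rose and 1 fell in itr-1, against the same shares of all genes. With median-of-ratios scaling the double mutant had 3 higher and 3 lower (4408 and 4416 of the 15230 genes). The nuo-6 strain had 3 higher and 1 lower (3745 and 3727 genes), and itr-1 had 2 higher and 3 lower (2628 and 3222 genes). The TRPM-type gene gtl-1 stood at 0.90 in the double mutant (adjusted p = 5.2e-05), 0.68 in nuo-6 (adjusted p = 0.000521) and 0.90 in itr-1 (adjusted p = 0.000218). The gene that fell was unc-36, an auxiliary subunit of voltage-gated calcium channels, at -0.47 in the double mutant (adjusted p = 0.00411) and -0.60 in itr-1 (adjusted p = 0.0028), and it was also lower in the double mutant than in nuo-6 (-0.54, adjusted p = 0.01). It averaged 5.42 TPM in the double mutant, 8.31 TPM in nuo-6, 4.92 TPM in itr-1 and 7.88 TPM in N2, and its calls against N2 were lost with the stage score.

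Of 13 calcium sensor genes, 5 rose and 0 fell in the double mutant against N2, 7 rose against itr-1 and 3 rose against nuo-6, beside 46.3%, 29.3% and 9.99% of all genes called higher. With median-of-ratios scaling the double mutant had 2 higher and 3 lower against N2 (4408 and 4416 of the 15230 genes). Against itr-1 it had 2 higher and 1 lower (3270 and 3430 genes), and against nuo-6 2 higher and 0 lower (853 and 1157 genes). With the stage score 8 rose and 0 fell in the double mutant against N2. The calmodulin-like gene cal-2 averaged 26.8 TPM in the double mutant, 18.0 TPM in nuo-6, 18.5 TPM in itr-1 and 14.5 TPM in N2. Its log2 fold in the double mutant was 0.83 against N2 (adjusted p = 1.33e-05) and 0.54 against nuo-6 (adjusted p = 0.00229). The calcineurin regulator rcan-1 stood at 0.71 in the double mutant against N2 (adjusted p = 0.00031) and 0.44 against itr-1 (adjusted p = 0.00958), and the comparison with itr-1 lost its call with median-of-ratios scaling and without the libraries numbered 2. Calmodulin itself, cmd-1, stood at -0.17 in nuo-6 against N2 (adjusted p = 0.0106), which was lost with the stage score and without the libraries numbered 2.

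The genes whose profiles lay nearest to each member were found among 6409 candidates by the root mean square difference of centred log2(TPM + 1) over the 12 libraries, a description of these libraries. For crt-1, whose own spread was 0.214, they were hsp-3 at 0.0639, which is in the folding list, and gcn-1 at 0.0681. For csq-1, with a spread of 0.195, they were dbt-1 at 0.0651 and nkat-3 at 0.068. For mcu-1 (0.22) they were unc-57 at 0.0679 and yap-1 at 0.0714, for orai-1 (0.203) lin-14 at 0.0922 and atln-2 at 0.0948, and for sca-1 (0.11) vha-4 at 0.0539 and mig-1 at 0.0541. The profiles of unc-68 and stim-1 varied little, with spreads of 0.0619 and 0.0517. Their nearest genes were gly-5 at 0.0376 and deb-1 at 0.0398 for unc-68, and fndc-1 at 0.0464 and gspd-1 at 0.0486 for stim-1, the second pair close to the spread of stim-1 itself.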

How the data were processed

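The labels put 12 libraries of whole fourth-stage larvae into 4 strains with 3 biological replicates each, from cultures of about 1000 worms, with RNA integrity numbers of 10 and stranded, polyA-selected libraries. The deposited values are TPM made by the authors for 46926 genes, on build WBcel235 as the submitters' processing notes name it. Neither aligner nor counting program nor annotation release is given in the sources used here. TPM keeps no depth, so depth is unknown and no counting interval is given. Gene names and positions came from the Ensembl release 115 annotation of WBcel235, which held all 46926 identifiers.

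The members, the pathway and marker lists and the tests were chosen with earlier results of these data known. The results on 1 further member of the set are not reported here. The 15230 genes that reached 1 TPM in 3 or more libraries were fitted as log2(TPM + 1) in 1 linear model over the 12 libraries with limma 3.58.1 in R 4.3.3 (moderated with a trend on 8 residual plus 2.85 prior degrees of freedom). Adjusted p is Benjamini-Hochberg over these genes in each of 6 comparisons, two-sided. The fit was tested on simulated data with 200 changed genes. Named genes are the 7 members, up to 4 genes per pathway list and comparison with the smallest adjusted p, and the 2 genes most like each member with a mean of at least 5 TPM, while uggt-1 and hsp-4 were added after their values were seen. From the marker lists, asp-1, ges-1, elt-2, bli-1 and elt-3 were named outside this rule. The alternatives changed the pseudocount (0.1 or 0.5), the filter (none, or 5 TPM), the scaling (median-of-ratios or quantile), the samples (only the groups compared, or each library left out) and the model (replicate number as a block, no trend, or the stage score as a covariate). The omission of all libraries numbered 2 was added after the data were seen. The filter, the groups fitted, the replicate block, the trend and the omission of a library outside a comparison leave its fold unchanged. These alternatives alter only its error or adjusted p. Plots were drawn with matplotlib 3.10.9, and tables were made with pandas 2.3.3 and numpy 2.4.6 under Python 3.11.15.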

Additional observations from a re-analysis of the deposited data

Results flagged for a closer look

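The results here are those whose nuo-6 effect differed between the 2 backgrounds, by limma's interaction term (Benjamini-Hochberg over the 15230 genes). Groups of 3 libraries are too small for a test of single outlying libraries. Among the members this was crt-1, with an interaction of 0.43 (adjusted p = 0.0229), which was called in 18 of 22 alternatives.

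Among the reticulum folding genes named here, pdi-2 had an interaction of 0.65 (adjusted p = 0.00858), pdi-3 of 0.50 (adjusted p = 0.00123), pdi-6 of 0.43 (adjusted p = 0.0203) and dnj-27 of 0.75 (adjusted p = 0.012). The disulfide isomerase genes pdi-2 and pdi-3 were called in 22 of 22 alternatives, pdi-6 in 20 and dnj-27, a cochaperone gene, in 21. For pdi-2 the log2 fold in nuo-6 against N2 was -0.62 (adjusted p = 0.000156) and in the double mutant against itr-1 it was 0.03 (adjusted p = 0.798).

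In the opposite direction, the TRPM-type genes gtl-1 and gtl-2 had interactions of -0.68 (adjusted p = 0.0229) and -0.51 (adjusted p = 0.0494). For gtl-1 the call held in 17 of 22 alternatives. The gtl-2 call held in 5 of the 21 alternatives that kept the gene, whose mean was 1.31 TPM in N2.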

How the results depend on the processing

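Depth is unknown in TPM, and 3 libraries per strain set the precision. Of the members' folds under all alternatives, 864 kept their direction and side of the threshold, 26 lost a call and 22 gained one. A further 43 changed sign without a call in either analysis, 15 of them with another scaling, 4 with the stage score, 3 without the libraries numbered 2 and 21 with 1 library left out. Another 4 changed sign with a call in one of the analyses, as did 4 folds of pathway genes, all 8 with another scaling: with median-of-ratios scaling, unc-68 (-0.16) and stim-1 (-0.15) in itr-1 against N2, crt-1 (-0.26) and pmr-1 (-0.019) in the double mutant against N2, and with quantile normalization unc-68 in itr-1 (-0.20), pmr-1 in the double mutant (-0.073), and pmr-1 (-0.022) and ckk-1 (-0.040) in nuo-6 against N2. These scalings move the median of all genes to near 0, and no other cause was tested.

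With the stage score as a covariate, 1 member was called in itr-1 against N2 and 0 in the interaction. Without the libraries numbered 2, 0 were called in the interaction. In the double mutant, median-of-ratios and quantile scaling each called 5 against N2 and 1 against itr-1. Leaving out each library gave 2 to 4 called members in nuo-6 against N2, 2 to 3 in itr-1 against N2, 3 to 4 in the double mutant against N2, 2 in every omission against nuo-6, 0 to 1 against itr-1 and 0 to 1 in the interaction. Under the same omissions the stim-1 to orai-1 ratio for the nuo-6 allele lay between -0.31 and -0.20, and unc-68 to sca-1 between 0.15 and 0.21. Of all genes, the stage score left 1978 called in itr-1 against N2 (6109 without it), 3850 in the double mutant against nuo-6 (2353 without it) and 779 in the interaction (1829 without it). Omissions gave 1144 to 2634 genes in the double mutant against nuo-6 and 867 to 2627 in the interaction.

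The main fit did not pair the libraries by replicate number. Same-numbered libraries correlated at -0.02 to 0.51, with 11 of 18 pairs over 0.1, and other-numbered libraries at -0.47 to 0.29. Closest to their own number were 7 of 12 libraries, and replicate 2 had the highest stage score in each of the 4 strains. These values do not show that same-numbered libraries were independent. A batch shared by them was not tested beyond the replicate block, and the permutation tests of ratios were not stratified by replicate number. With the replicate block, no member's call changed (crt-1 in the interaction 0.43, adjusted p = 0.0297), and the interaction called 2762 genes.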

Other observations

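Markers of tissues other than body wall muscle also differed between strains, and their part in the levels of the 7 calcium genes was not tested. Beside the counts against N2 below, 46.3% of all genes were called higher in the double mutant, 37.3% in nuo-6 and 29% in itr-1. Called lower were 17%, 15% and 11.1%. With median-of-ratios scaling, 4408 of the 15230 genes were called higher and 4416 lower in the double mutant. Those counts were 3745 and 3727 in nuo-6, and 2628 and 3222 in itr-1. Of 9 neuronal genes, 9 rose in the double mutant against N2, 5 in nuo-6 and 3 in itr-1, and 0 fell, while with median-of-ratios scaling 3, 2 and 1 rose. Their summed level was 626.5 to 696.9 TPM in the double mutant, 548.4 to 605.7 TPM in nuo-6, 477.1 to 517.1 TPM in itr-1 and 411.5 to 437.0 TPM in N2, without overlap between strains. Of 9 intestinal genes, 5 rose and 0 fell in the double mutant and in itr-1, while 2 rose and 2 fell in nuo-6, and with median-of-ratios scaling 3 rose and 1 fell in each of the first pair and 4 fell in nuo-6. Their summed level was 4592 to 5802 TPM in the double mutant, 3594 to 4052 TPM in nuo-6, 5126 to 5934 TPM in itr-1 and 3914 to 4184 TPM in N2. The double mutant and itr-1 overlapped each other and lay above the other strains, but asp-1 was the most abundant gene of the list in every strain, with means of 3205 TPM in the double mutant, 2042 TPM in nuo-6 and 3433 TPM in itr-1 (log2 fold against N2 of 0.56 in the double mutant, -0.08 in nuo-6 and 0.66 in itr-1). The order was not that of ges-1 and elt-2, since ges-1 averaged 59.4 TPM in the double mutant, 49.3 TPM in nuo-6, 30.2 TPM in itr-1 and 35.7 TPM in N2, and elt-2 averaged 27.04 TPM in the double mutant, 16.5 TPM in nuo-6, 14.1 TPM in itr-1 and 14.6 TPM in N2.

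The hypodermal list of 8 genes summed to 616.1 to 673.1 TPM in the double mutant, 621.7 to 719.0 TPM in nuo-6, 455.6 to 725.5 TPM in itr-1 and 955.2 to 1027 TPM in N2, highest in N2 without overlap. Single genes went both ways, with 3 higher and 2 lower in the double mutant against N2, 1 higher and 3 lower in nuo-6, and 3 higher and 4 lower in itr-1. The collagen gene bli-1 averaged 130.8 TPM in the double mutant and 387.8 TPM in N2, whereas elt-3 averaged 27.3 TPM in the double mutant and 15.7 TPM in N2. None of the listed markers of these 3 tissues was at 0 in every library. Of 7 pharyngeal muscle genes, 1 rose and 3 fell in the double mutant against N2. In nuo-6 1 rose and 2 fell, and in itr-1 3 rose and 0 fell. With median-of-ratios scaling 0 rose and 4 fell in the double mutant and in nuo-6, and 2 rose and 1 fell in itr-1. Of the 20 oocyte and early embryo genes, 18 rose in the double mutant against N2, 14 in nuo-6 and 20 in itr-1, and 0 fell, beside 46.3%, 37.3% and 29% of all genes called higher. With median-of-ratios scaling 12, 8 and 19 rose, and with quantile normalization 12, 6 and 19. Of 9 germ line genes, 2 rose and 2 fell in the double mutant against N2. In nuo-6 1 rose and 2 fell, and in itr-1 3 rose and 0 fell. With median-of-ratios scaling 5 fell in the double mutant, 6 fell in nuo-6, and 2 rose and 1 fell in itr-1. Of 11 tested entries of the sperm list, 0 rose and 4 fell in the double mutant against N2. In nuo-6 1 rose and 3 fell, and in itr-1 6 rose and 0 fell.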
